A study of Mus musculus with 24 samples.

Results

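The guanylin receptor pathway was described here through 10 genes, out of 53465 in the count table, in cells sorted from 4 regions of the mouse intestine. The genes were chosen by their role in the pathway: the ligands *Guca2a* and *Guca2b*, the receptor *Gucy2c*, the cGMP-dependent kinase *Prkg2*, the channel *Cftr*, the exchanger *Slc9a3*, the scaffolds *Slc9a3r1* and *Pdzk1*, the phosphodiesterase *Pde5a* and the exporter *Abcc4*. All 10 passed the filter on low counts that left 15044 genes for testing. Most attention went to the genes that act after the receptor.

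Guanylin and uroguanylin are small peptides that intestinal epithelial cells release into the lumen, where they bind guanylyl cyclase C (*Gucy2c*) on the brush border. The receptor makes cyclic GMP, which activates the membrane-bound kinase encoded by *Prkg2*. The kinase phosphorylates the chloride and bicarbonate channel CFTR, which opens, and cGMP signalling inhibits the sodium/proton exchanger NHE3 (*Slc9a3*), so that salt and water stay in the lumen. Scaffold proteins with PDZ domains hold these transporters near the kinase, phosphodiesterases break cGMP down, and exporters of the ABC family carry it out of the cell.

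Epithelial cells came from Guca2a-Venus mice, whose bacterial artificial chromosome carries the yellow fluorescent protein Venus in place of the *Guca2a* coding sequence. The 8 groups were the GFP positive and GFP negative cells (Venus-positive and Venus-negative below) of the duodenum, jejunum, ileum and colon (colon and rectum together), with 3 libraries each. All animals carried the transgene and ate standard chow, the age was not given in the labels, and dead cells, debris and CD45-positive immune cells were removed by the same sort in every group. The line came from a single founder and was backcrossed to C57Bl6J to a varying degree. Cells came from 3 mice for each region, so libraries of different groups can share a mouse. The labels do not name the mouse of a library, so this was not put in the fits, and p-values measure the spread between libraries.

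Libraries held 7458616 to 23063124 counts on genes, and mitochondrial genes took 32.3% to 80.7% of them. This share was lower in positive than in negative cells of the small intestine without overlap, at 32.3% to 46.6% against 64.6% to 76.4% (duodenum), 47.1% to 60.6% against 61.2% to 78.8% (jejunum) and 41.0% to 55.4% against 64.7% to 70.9% (ileum), whereas colonic libraries overlapped at 68.6% to 77.9% against 65.3% to 80.7%. With nuclear protein-coding genes only, no call of a sort difference changed for the 10 genes. A level is a CPM value, a count divided by the library's total (TMM-adjusted in edgeR) and put on a common scale, and 3 counts, the floor used here, were 0.106 to 0.360 CPM. The floor covers counting error only. Differences are log2 fold changes of positive over negative cells with their standard error (SE) from edgeR's quasi-likelihood fit of all 24 libraries, and adjusted p is by Benjamini-Hochberg over all 15044 genes, with a threshold of 0.05. The epithelial markers *Epcam*, *Cdh1* and *Vil1* summed to 544 to 3462 CPM in every library, and those of stroma, muscle and endothelium to at most 6.15 CPM.

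The labels give only the sort, so the make-up of the sorted cells was read from marker lists. Positive cells of every region had more of all 6 goblet cell markers, and their sum in the duodenum was 45077 to 49837 CPM in positive against 241 to 338 CPM in negative libraries. In the jejunum the same sum was 1487 to 3596 CPM in positive libraries. All 4 Paneth cell markers rose in small-intestinal positive cells, where their sum in positive libraries was 15650 to 43412, 1349 to 13362 and 3546 to 8519 CPM. Enterocyte markers went another way. All 7 were higher in jejunal and ileal positive cells, whereas 1 was higher and 2 were lower in the duodenum, and 2 were higher in the colon. Their sum in positive libraries was 1178 to 2818, 11807 to 17301, 2194 to 3451 and 106 to 114 CPM from duodenum to colon. The list held no colonocyte marker, so the low colonic sum does not measure colonocytes. The paper that reported these data found colonocyte markers enriched in positive cells. It describes colonic positive cells as apparently mostly mature colonocytes. Markers of stem and proliferating cells were lower in positive cells, 2 of 5 in the duodenum, 5 of 5 in the jejunum and ileum and 3 of 5 in the colon. Enteroendocrine markers were lower in positive cells too, 4 of 4 in each small-intestinal region and 3 of 4 in the colon, with sums of 9.90 to 37.8 against 659 to 808 CPM in the duodenum. Of 4 tuft cell markers 3 were lower in the duodenum, 4 in the jejunum and ileum and 0 in the colon. Immune markers summed to 9.79 to 29.1 against 0.937 to 2.46 CPM in the duodenum, where Lyz2 alone gave 9.00 to 29.1 CPM in positive libraries and Ptprc, which encodes CD45, at most 0.225. The part these cell types had in the results on the pathway was not tested, and in sorted bulk RNA a larger share of cells of a type and more RNA per cell cannot be told apart.

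**Figure D1:**
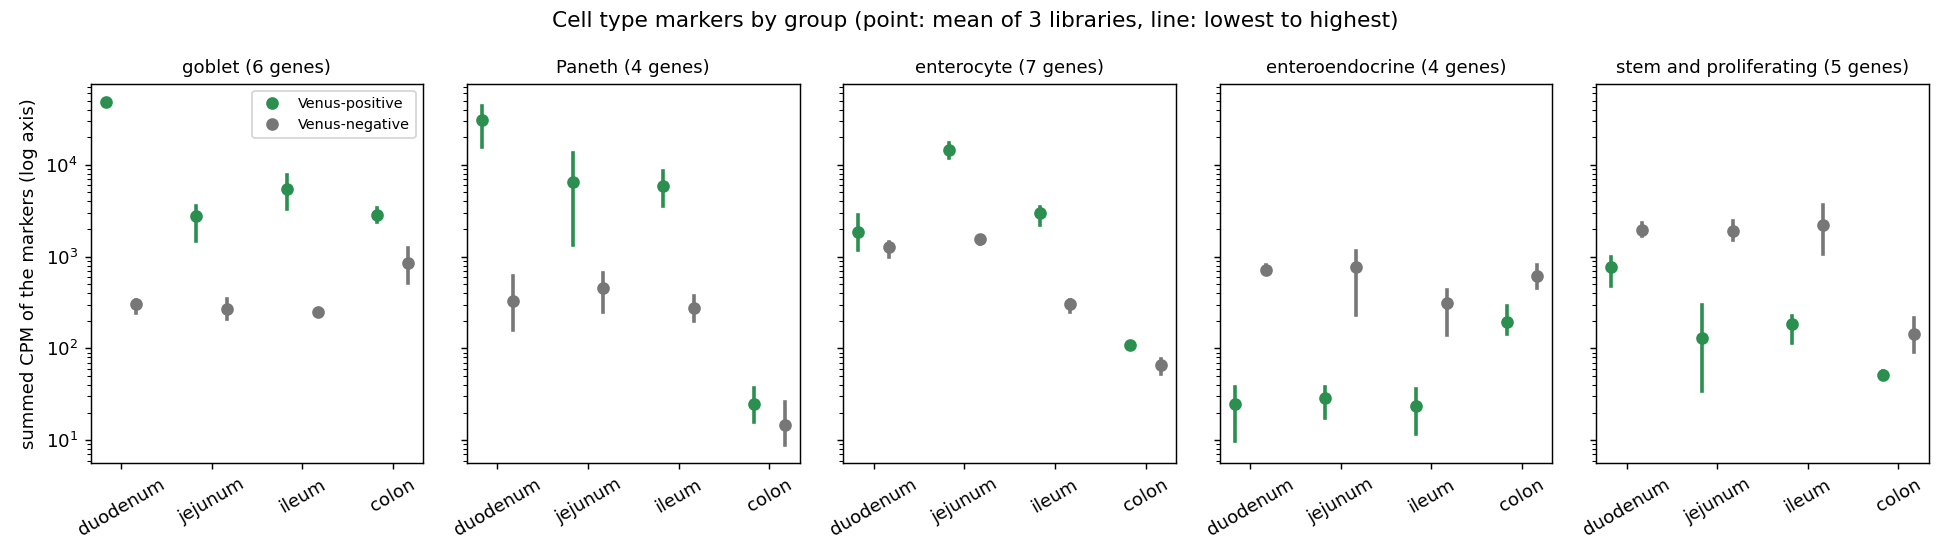
Summed CPM of marker genes (y, log axis) of 5 cell types in the 4 regions (x), with points for the mean of 3 libraries and lines from the lowest to the highest. Goblet and Paneth markers stand highest in positive cells of the duodenum, and enterocyte markers in positive cells of the jejunum, at 11807 to 17301 CPM.

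The 250 bases before the start of 4 genes are shown because they bear on the sort and on the transporters described below. The *Guca2a* start drives Venus, *Guca2b* is the neighbouring ligand gene, and *Cftr* and *Slc9a3* are the channel and the exchanger compared below. Sequences are RefSeq's on GRCm38.p6, 5′ to 3′ on the strand of the gene, and 8 of the 10 genes had an entry. They lie at chr4:119637482-119637731 on the plus strand (*Guca2a*), chr4:119658946-119659195 on the minus strand (*Guca2b*), chr6:18170437-18170686 on the plus strand (*Cftr*) and chr13:74121163-74121412 on the plus strand (*Slc9a3*). Capitals mark a match to any of 4 motifs on either strand.
Guca2a: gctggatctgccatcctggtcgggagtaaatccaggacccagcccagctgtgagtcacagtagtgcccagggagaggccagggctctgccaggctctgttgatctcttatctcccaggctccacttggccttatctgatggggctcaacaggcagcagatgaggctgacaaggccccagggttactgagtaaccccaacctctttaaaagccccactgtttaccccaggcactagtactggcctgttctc
Guca2b: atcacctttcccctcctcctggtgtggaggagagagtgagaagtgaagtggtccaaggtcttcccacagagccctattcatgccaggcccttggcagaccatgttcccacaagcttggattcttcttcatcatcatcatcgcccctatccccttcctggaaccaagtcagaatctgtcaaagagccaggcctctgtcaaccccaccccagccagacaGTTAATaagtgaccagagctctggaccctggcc
Cftr: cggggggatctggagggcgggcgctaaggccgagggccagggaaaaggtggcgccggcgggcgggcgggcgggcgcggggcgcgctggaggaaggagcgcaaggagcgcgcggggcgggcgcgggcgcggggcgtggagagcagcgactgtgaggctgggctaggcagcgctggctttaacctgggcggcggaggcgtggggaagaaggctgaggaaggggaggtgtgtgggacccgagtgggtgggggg
Slc9a3: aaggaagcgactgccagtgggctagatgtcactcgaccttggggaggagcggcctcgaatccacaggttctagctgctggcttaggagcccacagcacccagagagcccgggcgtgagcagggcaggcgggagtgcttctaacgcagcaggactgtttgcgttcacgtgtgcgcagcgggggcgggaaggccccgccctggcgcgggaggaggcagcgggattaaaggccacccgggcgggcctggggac
The motifs were a half-site of the factor HNF1 (GTTAAT), the CDX2 motif TTTATG, the HNF4A motif CAAAGTCCA and the TATA box TATAAA. They were held by 6.43%, 10.8%, 0.384% and 12.4% of 32851 windows of the same length before RefSeq starts. A single match was found among the 8 genes, the HNF1 half-site that begins 33 bases before the start of *Guca2b*. A match is a description of letters, and the others having none says only that these letters are not in these windows.

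Averaged over the 4 regions with equal weight, 8 of the 10 pathway genes were higher in Venus-positive cells and *Cftr* and *Abcc4* were lower, against 25.0% and 32.9% of all genes tested. In the duodenum 4 were higher (*Guca2a*, *Guca2b*, *Slc9a3r1* and *Pdzk1*) and 2 lower (*Cftr* and *Pde5a*), against 8.88% and 8.08% of all genes tested. In the jejunum 8 were higher and 2 lower, against 18.3% and 25.6%, and the ileum gave the same numbers against 17.9% and 20.6%. In the colon 6 were higher and only *Cftr* was lower, against 9.31% and 3.80%. *Guca2a* is tied to the sort and *Guca2b* can lie on the transgene. Without these ligands, 8 genes remain, with 2 higher and 2 lower (duodenum), 6 and 2 (jejunum and ileum alike) and 4 and 1 (colon). The median log2 fold change of the 10 genes was 0.83, 1.97, 1.91 and 1.40 from duodenum to colon, and without the ligands 0.43, 1.59, 1.17 and 0.84, beside medians of −0.16, −0.28, −0.27 and 0.00 over all genes tested. With scaling by library size alone 5 of the 10 genes were higher and 0 lower in the duodenum, where the median of all genes moved to 0.27, and values whose call changed on that scale are given on it too.

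**Figure D2:**
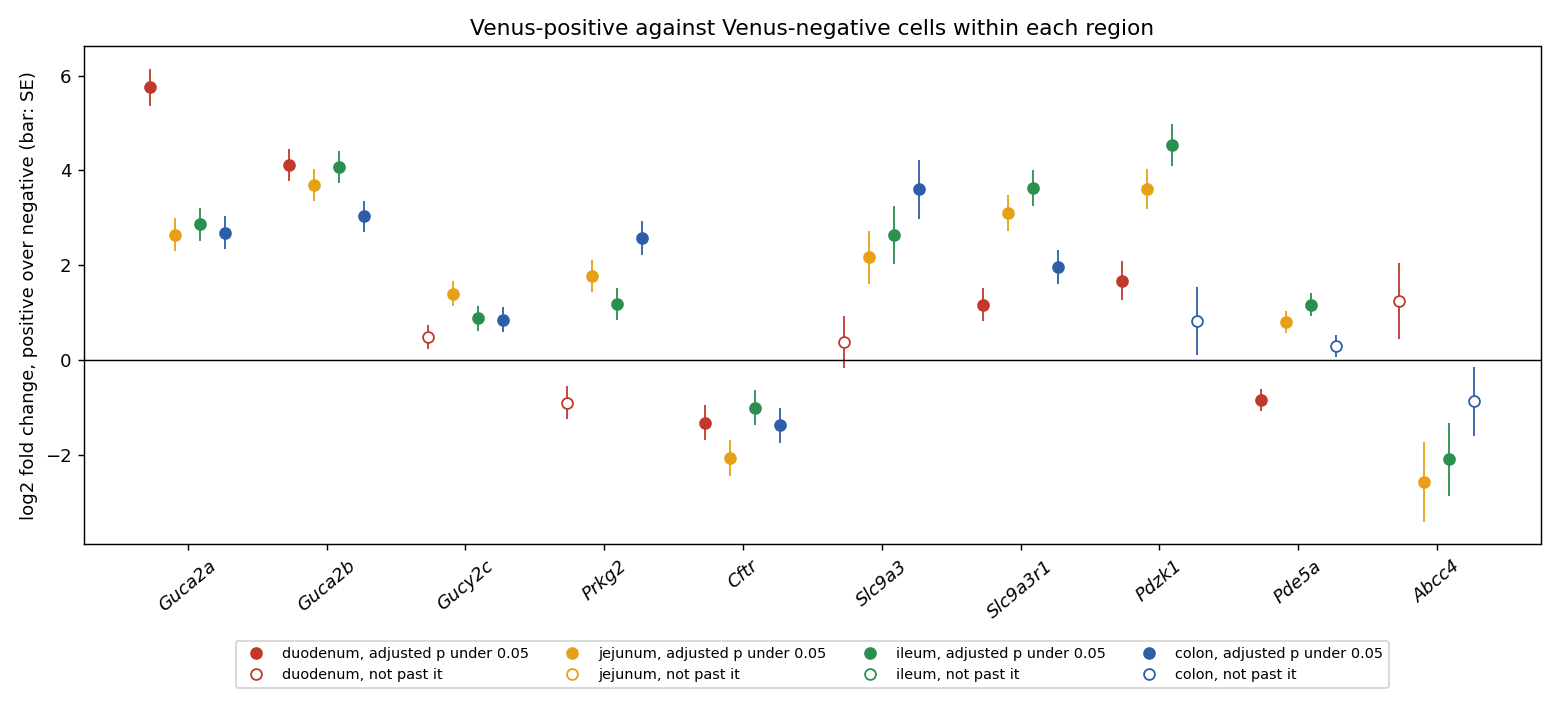
Log2 fold change of Venus-positive over Venus-negative cells (y, with SE) for the 10 pathway genes (x) in each region, filled where the adjusted p was under 0.05. Cftr lies below 0 in every region, and the duodenum lies below the other regions for Prkg2, Slc9a3 and Pde5a.

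Whether the sort difference depended on the region was tested for each gene with 3 degrees of freedom. It did for 6 of the 10, *Guca2a*, *Prkg2*, *Slc9a3*, *Slc9a3r1*, *Pdzk1* and *Pde5a*, against 17.5% of all genes, and for 5 of the 8 without the ligands. Taken singly, the duodenum differed from the jejunum in 6 of the 10 genes (14.6% of all genes), from the ileum in 5 (10.5%) and from the colon in 3 (3.62%), and without the ligands in 5, 4 and 2 of 8. Of the 6 that differed from the jejunum, 4 had the smaller log2 fold change in the duodenum. Within positive cells the level depended on the region for all 10 genes, against 43.3% of all genes, and within negative cells for 7, against 12.3%. Between neighbouring regions, positive cells differed in 9 of 10 genes between duodenum and jejunum (33.2%), in 3 between jejunum and ileum (5.15%) and in 7 between ileum and colon (21.7%). Negative cells differed in 3 (0.725%), 2 (2.11%) and 3 (5.24%).

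**Figure D3:**
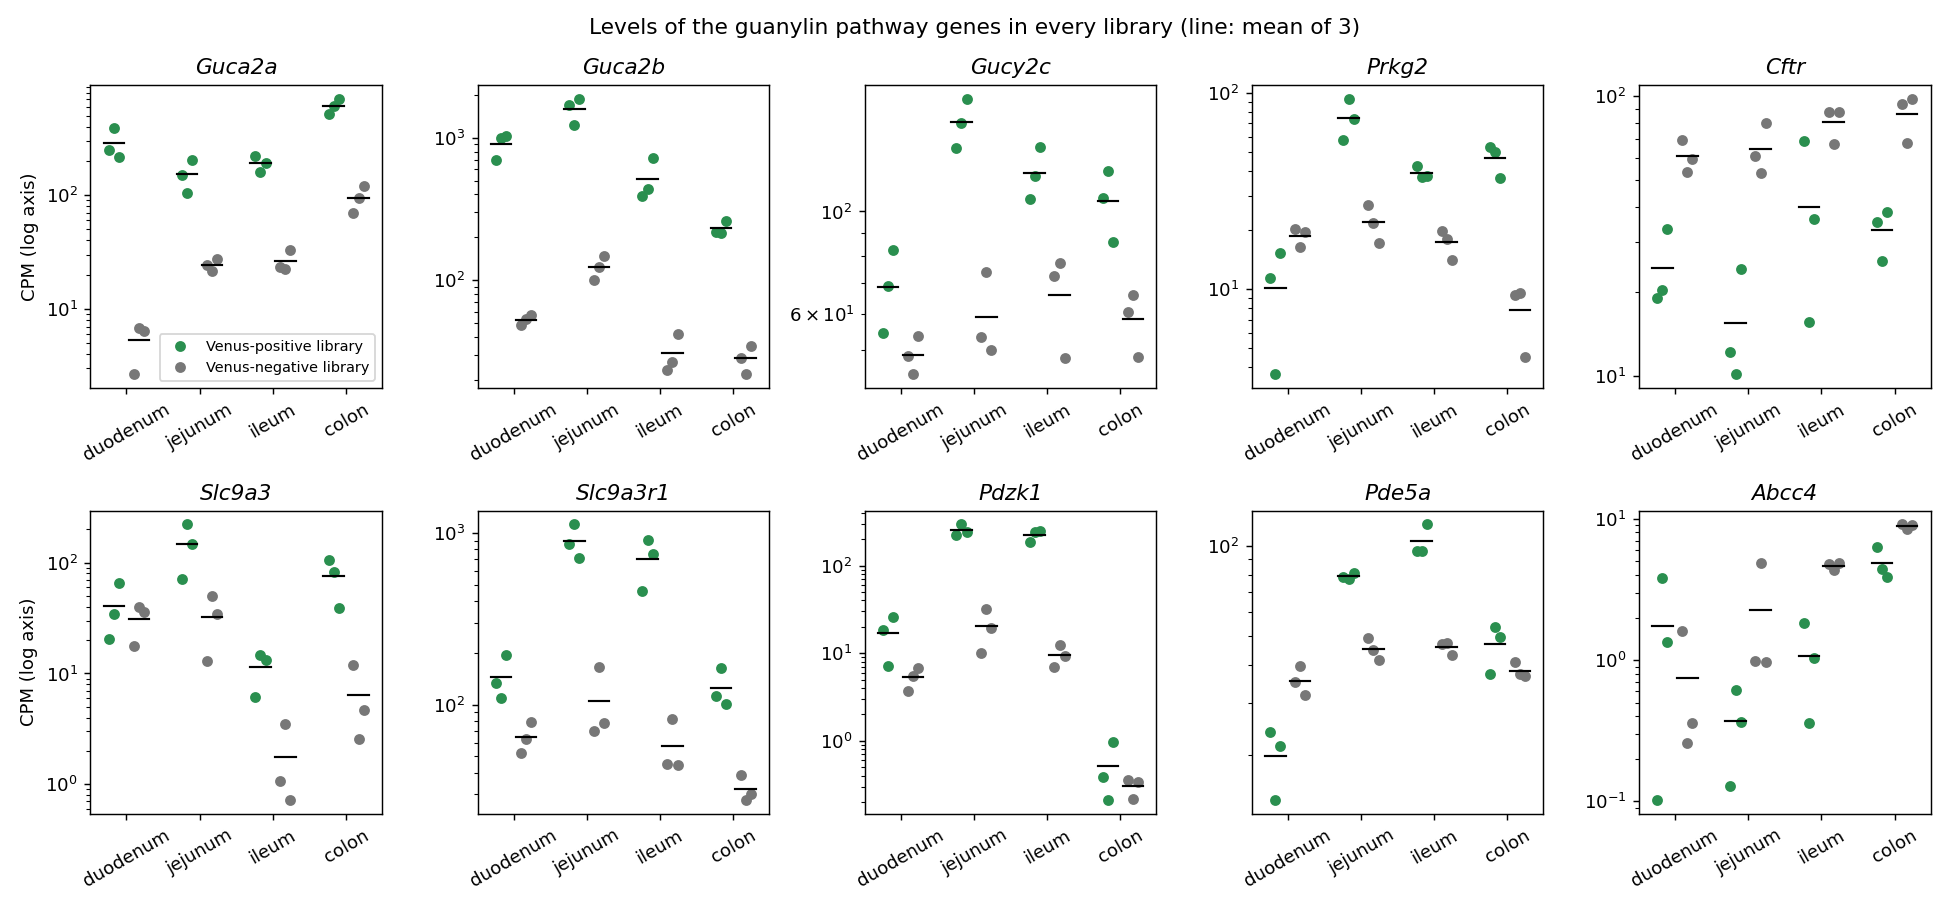
CPM of the 10 pathway genes (y, log axis) in each of the 24 libraries by region (x), with a line at the mean of 3. Positive libraries lie above negative ones for the ligands in every region and below them for Cftr in all but the ileum, where a positive library reached 68.7 CPM.

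The ligand *Guca2a*, at chr4:119637704-119639471, checks the sort and is no finding, because its own promoter drives the reporter. Duodenal positive libraries held 248, 393 and 216 CPM, jejunal ones 150, 104 and 206, ileal ones 221, 161 and 191, and colonic ones 516, 613 and 706.9. Duodenal negative libraries held 2.67, 6.74 and 6.42 CPM, jejunal ones 24.3, 21.5 and 27.7, ileal ones 23.5, 22.5 and 32.6, and colonic ones 69.5, 94.3 and 120. No positive library overlapped a negative one of its region. The log2 fold change was 5.75 in the duodenum and 2.65, 2.86 and 2.69 in the jejunum, ileum and colon. Counts of *Guca2a* cannot separate the native gene from the parts of the gene that the transgene keeps outside the replaced stretch. The negative cells of the colon had more *Guca2a* than those of the ileum, by 1.86 on the log2 scale (adjusted p = 0.00033).

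The uroguanylin gene *Guca2b*, at chr4:119656607-119658954 on the other strand, lies close enough to *Guca2a* that the artificial chromosome can carry it too. Duodenal positive libraries held 698, 990 and 1035 CPM, jejunal ones 1687, 1232 and 1878, ileal ones 391.5, 437 and 715, and colonic ones 219, 215 and 259. Duodenal negative libraries held 48.1, 53.0 and 56.7 CPM, jejunal ones 99.8, 123 and 149, ileal ones 23.5, 26.4 and 42.0, and colonic ones 28.5, 21.9 and 34.4. The groups did not overlap in any region. The log2 fold changes were 4.11 ± 0.34, 3.69 ± 0.33, 4.07 ± 0.34 and 3.03 ± 0.33 (SE), or 17.3-fold, 12.9-fold, 16.8-fold and 8.17-fold, with adjusted p from 4.8e-10 in the duodenum to 8.3e-07 in the colon. They were not shown to differ by region (adjusted p = 0.19), although DESeq2 gave an adjusted p of 0.029 for the same question. Per kilobase of exon, positive cells of the jejunum had 1838 CPM of *Guca2b* and 258 of *Guca2a*, whereas those of the colon had 265 and 1030, so the more abundant ligand message changed along the gut.

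Within a library the log2 ratio of *Guca2a* to *Guca2b* counts does not depend on scaling. From duodenum to colon its mean in positive cells was −1.70 ± 0.49 (SD, n = 3 libraries), −3.41 ± 0.20, −1.39 ± 0.54 and 1.40 ± 0.14. In negative cells it was −3.42 ± 0.64, −2.32 ± 0.25, −0.20 ± 0.18 and 1.73 ± 0.42. The difference of positive from negative cells was 1.72 in the duodenum and −1.09, −1.19 and −0.33 in the other regions. Its mean over regions, −0.22, was not past the threshold (exact permutation test over 160000 relabellings within regions, two-sided p = 0.476). The value rests on the transgene as above.

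The receptor *Gucy2c*, at chr6:136697284-136781765, was expressed in both sorts and was higher in positive cells in all regions but the duodenum, where the call was not made. The duodenum gave 54.6, 68.8 and 82.6 CPM in positive cells against 48.6, 44.4 and 53.7. The jejunum gave 137, 156 and 176 against 53.4, 73.8 and 50.2 CPM. The ileum gave 106, 119 and 138 against 72.4, 77.4 and 48.1 CPM. Positive libraries lay above negative ones in all 3 of these regions, in the duodenum by less than 1 CPM at the nearest pair. In the colon the levels were 107, 123 and 85.8 CPM against 60.6, 65.9 and 48.5, again without overlap. From duodenum to colon the log2 fold change was 0.49 ± 0.26 (SE; adjusted p = 0.19), 1.40 ± 0.26 (6.8e-05), 0.88 ± 0.26 (0.0076) and 0.85 ± 0.26 (0.026). Averaged over regions it was 0.90 ± 0.13, or 1.87-fold (adjusted p = 6.3e-07).

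Scaling by library size alone put the duodenum at 0.93 for *Gucy2c*, past the threshold (adjusted p = 0.033). The ileum call was lost without negative replicate 3 (0.69, adjusted p = 0.061). The colon call was lost without negative replicate 2 or 3 or positive replicate 1 or 2 (0.68 to 0.89, adjusted p = 0.0572 to 0.179), and also with RLE factors (0.77, 0.050), no filter on low counts (0.85, 0.096), library size alone (0.79, 0.11) and the 6 colon libraries alone (0.73, 0.079). The difference between sorts was not shown to depend on region (adjusted p = 0.28). Duodenal positive cells had less *Gucy2c* than jejunal ones, by 1.19 on the log2 scale (adjusted p = 0.00070), while neighbouring regions from jejunum to colon were not shown to differ (adjusted p = 0.51 and 0.62). Within negative cells dependence on region missed the threshold (adjusted p = 0.70, but 0.037 with library size alone), with means of 48.9, 59.1, 66.0 and 58.3 CPM.

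The kinase gene *Prkg2*, at chr5:98929773-99037351, encodes the membrane-anchored cGMP-dependent kinase that acts on CFTR. It was higher in positive than in negative cells from jejunum to colon, and the duodenum stood apart. In the jejunum positive cells had 57.7, 93.5 and 73.5 CPM and negative cells 26.7, 21.8 and 17.2. Ileal levels were 42.7, 37.4 and 37.7 against 19.8, 18.1 and 14.1 CPM, and colonic levels 52.9, 50.1 and 36.8 against 9.35, 9.60 and 4.51 CPM. In the duodenum the order was turned, with 11.4, 3.69 and 15.3 CPM in positive against 20.3, 16.5 and 19.6 CPM in negative cells, and no overlap.

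*Prkg2* had log2 fold changes of 1.77 ± 0.34 (SE; adjusted p = 0.00012), 1.18 ± 0.34 (0.0066) and 2.58 ± 0.36 (1.7e-05) from jejunum to colon, and −0.90 ± 0.35 (0.071) in the duodenum. Without positive replicate 3 the duodenum value was −1.33 (adjusted p = 0.018). Leaving out each library in turn gave −1.33 to −0.50 in the duodenum. The difference by region was past the threshold (adjusted p = 0.00010). Duodenal positive cells had less *Prkg2* than jejunal ones, by 2.90 on the log2 scale (adjusted p = 6.0e-07), and negative cells of the colon had less of it than those of the ileum (1.15, adjusted p = 0.048). The second cGMP-dependent kinase gene, *Prkg1*, did not pass the filter and had group means of 0 to 0.385 CPM.

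The channel gene *Cftr*, at chr6:18170687-18322768, was lower in positive cells of every region. The duodenum gave 18.9, 20.3 and 33.5 CPM in positive against 69.6, 53.4 and 59.4 in negative cells, and the jejunum 12.2, 10.2 and 24.1 against 60.9, 52.9 and 79.7. The colon gave 35.4, 25.6 and 38.3 against 93.5, 67.7 and 97.6 CPM. Groups did not overlap in these regions. The ileum had positive libraries of 68.7, 15.6 and 36.4 CPM against 87.9, 67.1 and 87.7, so 1 positive library lay inside the negative range.

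From duodenum to colon the log2 fold change of *Cftr* was −1.33 ± 0.37 (SE; adjusted p = 0.014), −2.06 ± 0.38 (6.3e-05), −1.01 ± 0.37 (0.030) and −1.38 ± 0.37 (0.012), and −1.44 ± 0.19 on average, or 2.72-fold lower (1.2e-07). Without ileum positive replicate 1 the ileum value was −1.64. No dependence on region was shown (adjusted p = 0.44). With library size alone the calls in the duodenum (−0.88, adjusted p = 0.16) and ileum (−1.01, 0.063) were lost. The duodenum call was also lost without positive replicate 1 or 2 (−1.19 and −1.22, adjusted p = 0.0773 and 0.0624). The ileum call was lost with the 6 libraries of the region alone (−0.96, adjusted p = 0.068) and without negative replicate 1 or 3 or positive replicate 2 or 3 (−0.95 to −0.63, adjusted p = 0.0724 to 0.193). The colon call was lost without positive replicate 2 (−1.27, adjusted p = 0.080). An antisense gene shares 129 bases of *Cftr* exons, and the strand setting of the counting was not given in the sources used here.

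The exchanger gene *Slc9a3*, at chr13:74121457-74169442, encodes NHE3, the main route of sodium uptake at the brush border. Jejunal positive libraries held 71.1, 222 and 147 CPM, ileal ones 6.19, 14.8 and 13.3 and colonic ones 106, 83.3 and 39.2. Negative cells of these regions had 12.98, 50.6 and 34.5, then 1.07, 3.53 and 0.721, then 12.0, 2.56 and 4.68 CPM. No positive library overlapped a negative one in these 3 regions, and the ileum had the lowest mean in both sorts. In the duodenum 20.5, 34.7 and 66.2 CPM in positive cells overlapped 17.7, 40 and 35.8 CPM in negative cells.

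*Slc9a3* differed by 2.16 ± 0.57 (log2, SE; adjusted p = 0.0026), 2.64 ± 0.61 (0.00092) and 3.60 ± 0.62 (0.00017) from jejunum to colon. The ileum value was 3.63 without negative replicate 2, the highest of its group, and the colon value 4.41 without negative replicate 1. In the duodenum it was 0.38 ± 0.55 (adjusted p = 0.68), and −0.18 without positive replicate 3. Dependence on region had an adjusted p of 0.026. It was lost with DESeq2 (0.067), with library size alone (0.081) and without any of 7 libraries, which were duodenum negative replicates 2 and 3, duodenum positive replicates 1 and 2, colon negative replicate 2 and colon positive replicates 1 and 2 (adjusted p = 0.0503 to 0.0762). Along the gut, positive cells of the jejunum had more *Slc9a3* than those of the ileum by 3.68 on the log2 scale (adjusted p = 0.00013), and the colon more than the ileum by 2.74 (0.00092).

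The ratio of channel to exchanger within a library does not depend on scaling, and it shows only how the one stood relative to the other. The mean log2 ratio of *Cftr* to *Slc9a3* counts in positive cells was −0.62 ± 0.45 (SD, n = 3), −3.20 ± 1.08, 1.66 ± 1.71 and −1.10 ± 0.93 from duodenum to colon. In negative cells it was 1.04 ± 0.82, 1.17 ± 1.08, 5.82 ± 1.39 and 4.01 ± 0.93. All 3 positive libraries lay under all 3 negative ones in every region. The difference was −1.66, −4.36, −4.15 and −5.12 from duodenum to colon, and its mean of −3.82 had the smallest p that the 160000 relabellings can give (exact permutation test, two-sided p = 1.25e-05, adjusted over 3 ratios 3.75e-05). Leaving out each library in turn gave −4.05 to −3.63. The same counts gave averages of −1.44 for *Cftr* and 2.20 for *Slc9a3*, so the direction of the ratio was known beforehand. Its p is therefore no separate evidence. The relabellings take the libraries of a region as exchangeable, although a positive and a negative library can share a mouse. Enterocyte markers were higher and markers of stem and proliferating cells lower in jejunal and ileal positive cells, as given above, and their part in this ratio was not tested.

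**Figure D4:**
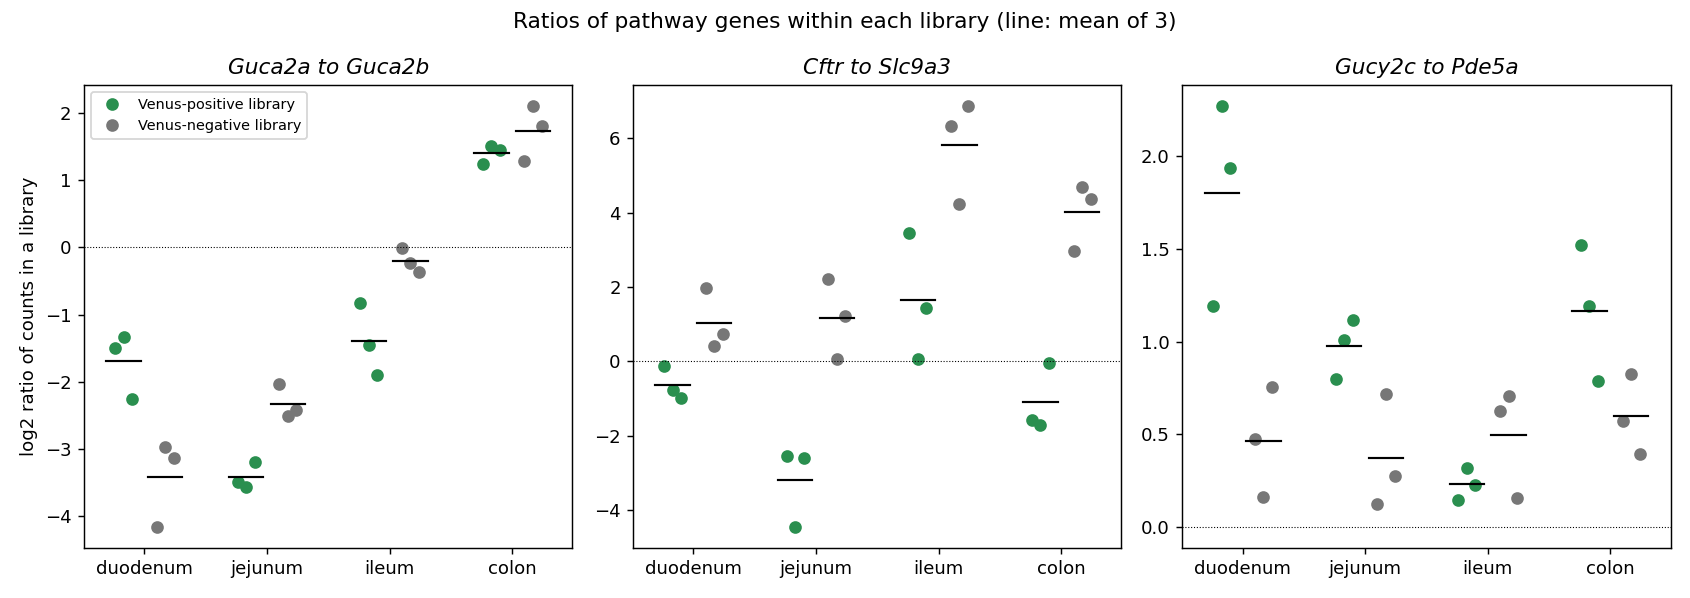
Log2 ratio of the counts of a pair of genes in each library (y) by region (x), with a line at the mean of 3. For Cftr to Slc9a3 the positive libraries lie under the negative ones in every region, with a mean difference of −3.82.

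In the jejunum and ileum the scaffolds had larger fitted fold changes than the other effectors, an order that was not tested. Without each library in turn, *Slc9a3* reached 3.63 in the ileum and *Slc9a3r1* fell to 3.40. *Slc9a3r1*, at chr11:115163341-115181181, encodes NHERF1, which binds both CFTR and NHE3 and links them to ezrin. Duodenal positive libraries held 134, 109 and 194 CPM, jejunal ones 859, 1119 and 714, ileal ones 460, 914 and 751, and colonic ones 112, 162 and 100.2. Negative cells had 52.4, 62.8 and 78.8, then 70.3, 164 and 78.5, then 45.1, 81.8 and 44.5, then 39.1, 27.8 and 30.02 CPM. The sorts did not overlap in any region, and the jejunum and ileum held the highest positive levels. The log2 fold changes were 1.17 ± 0.35 (SE; adjusted p = 0.021), 3.10 ± 0.37 (2.2e-07), 3.63 ± 0.38 (5.0e-08) and 1.95 ± 0.36 (0.00039), and they depended on region (adjusted p = 0.0021). The duodenum call was lost without negative replicate 1 or 2 or positive replicate 3 (0.90 to 1.14, adjusted p = 0.0730 to 0.105). Duodenal positive cells were lower than jejunal ones by 2.63 on the log2 scale (adjusted p = 2.7e-06), and those of the ileum higher than those of the colon by 2.503 (6.2e-06).

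*Pdzk1*, at chr3:96829284-96870926, encodes NHERF3, a scaffold with several PDZ domains. Jejunal positive cells had 223, 294 and 239 CPM against 9.94, 32.1 and 19.5 in negative cells, and ileal ones 185, 243 and 245 against 6.93, 12.6 and 9.31. In the duodenum the levels were 18.3, 7.06 and 26.1 against 3.72, 5.51 and 6.85 CPM. Sorts did not overlap in the small intestine. In the colon no library exceeded 0.968 CPM or 15 counts, and 1 positive and 2 negative libraries were at or under the floor. The fitted log2 fold change there, 0.82 (adjusted p = 0.50), rests on these counts and was −0.0016 without positive replicate 3. The log2 fold changes were 1.67 ± 0.41 (SE; adjusted p = 0.0053), 3.62 ± 0.42 (1.8e-07) and 4.54 ± 0.44 (2.3e-08) from duodenum to ileum, the last a 23.3-fold difference. The duodenum call was lost without positive replicate 3 (1.23, adjusted p = 0.0502). Dependence on region was past the threshold (adjusted p = 0.00098). Exons of *Pdzk1* share 1333 bases with *Gpr89*, a protein-coding gene on the other strand, so reads there cannot be assigned without the strand setting.

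*Pde5a*, at chr3:122728947-122859374, encodes the phosphodiesterase that breaks down cGMP. Jejunal positive cells had 78.9, 77.3 and 80.9 CPM and ileal ones 96.3, 95.9 and 118. Negative cells had 49.1, 44.8 and 41.5, then 46.9, 47.5 and 43.2 CPM. Positive libraries were higher in both regions without overlap. In the duodenum they were lower, at 23.9, 14.2 and 21.5 against 35.0, 39.7 and 31.8 CPM, and in the colon 37.2, 53.7 and 49.8 overlapped 40.9, 37.2 and 36.9 CPM. From duodenum to colon the log2 fold change was −0.84 ± 0.24 (SE; adjusted p = 0.014), 0.81 ± 0.23 (0.0057), 1.17 ± 0.23 (0.00020) and 0.29 ± 0.23 (0.46), with an adjusted p of 0.00043 for dependence on region. The duodenum call was lost with library size alone (−0.37, adjusted p = 0.42), with no filter on low counts (−0.76, 0.15), and without negative replicate 2 or positive replicate 2 (−0.76 and −0.65, adjusted p = 0.0658 and 0.103). In negative cells dependence on region missed the threshold (adjusted p = 0.61, but 0.041 with library size alone), with means of 35.5, 45.1, 45.9 and 38.3 CPM.

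The receptor and the enzyme that removes its product were compared within libraries. The mean log2 ratio of *Gucy2c* to *Pde5a* counts in positive against negative cells was 1.80 ± 0.55 (SD, n = 3) against 0.46 ± 0.30, 0.97 ± 0.16 against 0.37 ± 0.31, 0.23 ± 0.09 against 0.49 ± 0.30 and 1.17 ± 0.37 against 0.60 ± 0.22 from duodenum to colon. Positive libraries were higher without overlap in the duodenum and jejunum, and sorts overlapped in the ileum and colon. The mean difference over regions was 0.56 (exact permutation test, two-sided p = 0.00475, adjusted over 3 ratios 0.0071), and it was 1.34, 0.60, −0.27 and 0.57 by region, so the ileum went the other way.

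The exporter gene *Abcc4*, at chr14:118482692-118706219, encodes MRP4, which carries cyclic nucleotides out of cells. It was sparse, with 1 to 123 counts per library. In the duodenum and in the jejunum 1 of 3 positive libraries was at or under the floor, so values there rest in part on such counts. Ileal positive cells had 1.83, 0.361 and 1.03 CPM and negative cells 4.79, 4.34 and 4.82, and jejunal ones 0.128, 0.614 and 0.365 against 0.987, 4.83 and 0.968. Colonic levels were 6.26, 4.39 and 3.87 against 9.11, 8.50 and 9.01 CPM. Positive libraries were lower without overlap in these 3 regions. The duodenum had 0.102, 3.78 and 1.35 against 1.61, 0.259 and 0.360 CPM, with overlap. Its log2 fold changes were 1.25 ± 0.81 (SE; adjusted p = 0.30), −2.57 ± 0.84 (0.014), −2.10 ± 0.77 (0.031) and −0.87 ± 0.73 (0.48) from duodenum to colon, and −1.07 ± 0.39 on average (0.020). Calls were lost in the jejunum without negative replicate 2 (−1.37, adjusted p = 0.22) or positive replicate 1 (−2.17, 0.070). The ileum call was lost without negative replicate 1 or 3 or positive replicate 2 or 3 (−2.08 to −1.69, adjusted p = 0.0572 to 0.132). The call of the average was lost without duodenum negative replicate 1 or jejunum negative replicate 2 (−0.76 and −0.77, adjusted p = 0.11 and 0.085). The duodenum value was −0.061 without positive replicate 2 and 2.48 without negative replicate 1, and the ileum value −2.75 without positive replicate 1. Dependence on region missed the threshold (adjusted p = 0.060) and passed it with DESeq2 (0.022), the i5 index as covariate (0.039), library size alone (0.040) and no filter (0.0032). It also passed without any of 5 libraries, which were duodenum negative replicate 1, duodenum positive replicate 1, ileum positive replicate 1, jejunum negative replicate 3 and jejunum positive replicate 2 (0.0153 to 0.0498).

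Levels per kilobase of exon set the genes against each other within a group. In positive cells of the jejunum the mean order among the effectors was *Slc9a3r1* at 466 CPM per kilobase, *Pdzk1* at 70.8, *Gucy2c* at 39.4, *Slc9a3* at 26.6, *Prkg2* at 13.9, *Pde5a* at 8.04, *Cftr* at 1.99 and *Abcc4* at 0.0577. In negative cells of the same region it was *Slc9a3r1* at 54.2, *Gucy2c* at 14.9, *Cftr* at 8.31, *Slc9a3* at 5.94, *Pdzk1* at 5.77, *Pde5a* at 4.59, *Prkg2* at 4.08 and *Abcc4* at 0.354. *Cftr* thus stood under *Pde5a* in positive cells and above it in negative cells. Neighbours from *Slc9a3* to *Prkg2* in the negative order lay close together, and their order was not tested.

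A list of 46 other genes of the pathway was counted in the same fits, and 30 passed the filter. Averaged over regions 11 were higher and 9 lower in positive cells, beside 25.0% and 32.9% of all genes, so the lower share was near the background. By region they were 2 and 6 (duodenum, beside 8.88% and 8.08% of all genes), 11 and 7 (jejunum, 18.3% and 25.6%), 12 and 8 (ileum, 17.9% and 20.6%) and 6 and 3 (colon, 9.31% and 3.80%). The shares higher in the duodenum and lower in the jejunum were near these. None of the 13 other guanylyl cyclases, natriuretic peptides and their receptors passed the filter. Of the 7 other cyclic nucleotide kinase genes 6 were tested, with 1 higher and 1 lower on average, against the same percentages. Of the 12 other ion transporters, all tested, 6 were higher and 4 lower on average, the lower share again near the background, and 9 depended on region, against 17.5% of all genes. The calls of the average named in the following sentences were made under each of the 7 alternatives that give an average and without each library in turn. Most of these genes were named because they passed the threshold, so they do not stand for their lists.

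The 4 lower transporter genes were *Slc12a2*, *Kcnq1*, *Kcne3* and *Kcnn4*. *Slc12a2*, which encodes the sodium-potassium-chloride cotransporter NKCC1, was at 12.8 ± 11.3 CPM (SD, n = 3) in jejunal positive cells against 152 ± 21 in negative cells, and its average log2 fold change was −2.26 (adjusted p = 1.2e-10). The potassium channel subunits *Kcnq1* and *Kcne3*, which recycle potassium during secretion, had averages of −2.02 (1.2e-10) and −2.58 (6.3e-09), and the calcium-activated channel *Kcnn4* had −2.44 (8.0e-10). In each of these 4 genes positive libraries lay under negative ones in every region. The difference was not past the threshold for *Slc12a2* and *Kcnn4* in the duodenum (−0.56 and −0.85, adjusted p = 0.34 and 0.19). Nor was it for *Kcnq1* and *Kcne3* in the colon (−0.89 and −1.38, 0.085 and 0.091). The colon call of *Kcnn4* (−1.31, 0.0496) was lost without colon negative replicate 2 (−0.98, 0.21), among other single libraries. The differences depended on region in all 4 (adjusted p from 0.00053 for *Slc12a2* to 0.032 for *Kcne3*), although that of *Kcne3* was lost with DESeq2 (0.082) and without any of 7 libraries (0.0549 to 0.0783), which were colon negative replicates 1 and 2, colon positive replicate 3, jejunum negative replicates 1 and 3 and jejunum positive replicates 1 and 2.

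Of the 6 higher transporter genes, *Slc9a2*, *Scnn1a*, *Slc4a4* and *Slc26a3* are named here. The exchanger *Slc9a2* (NHE2) had an average log2 fold change of 2.13 (adjusted p = 2.8e-10), with 103 ± 26 CPM in jejunal positive cells against 17.8 ± 3.3. The sodium channel subunit *Scnn1a* had 2.88 (5.4e-11), and its largest difference was in the duodenum, at 51.5 ± 22.5 against 1.21 ± 0.42 CPM. In the jejunum its sorts overlapped (1.70, adjusted p = 0.0059). The bicarbonate cotransporter *Slc4a4* had an average of 0.75 (7.7e-06), from 1.57 and 1.41 in the jejunum and ileum, 0.59 in the colon (0.12) and −0.59 in the duodenum (0.10). Its duodenal positive libraries, at 16.7 to 27.1 CPM, all lay under the negative ones, at 29.7 to 31.2, and without positive replicate 3 the value was −0.85 (adjusted p = 0.038). The chloride/bicarbonate exchanger *Slc26a3*, which works beside NHE3, was at 116.7 ± 18 against 20.4 ± 9.2 CPM in the colon and at 10.2 ± 6.6 against 23.9 ± 4.7 CPM in the duodenum. It had an average of 0.83 (0.00052) and depended on region (adjusted p = 6.1e-05). Its lower level in the duodenum was not past the threshold with library size alone (−0.75, adjusted p = 0.27) or without duodenum negative replicate 2 or 3 or positive replicate 1 or 2 (−1.21 to −0.95, adjusted p = 0.0683 to 0.164), and it was −1.89 without positive replicate 3. *Slc9a8*, an exchanger of the same family as *Slc9a3* that was chosen after its values were seen, had an average of −0.28 (0.17) and was lower in the ileum (−0.95, adjusted p = 0.033).

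**Figure D5:**
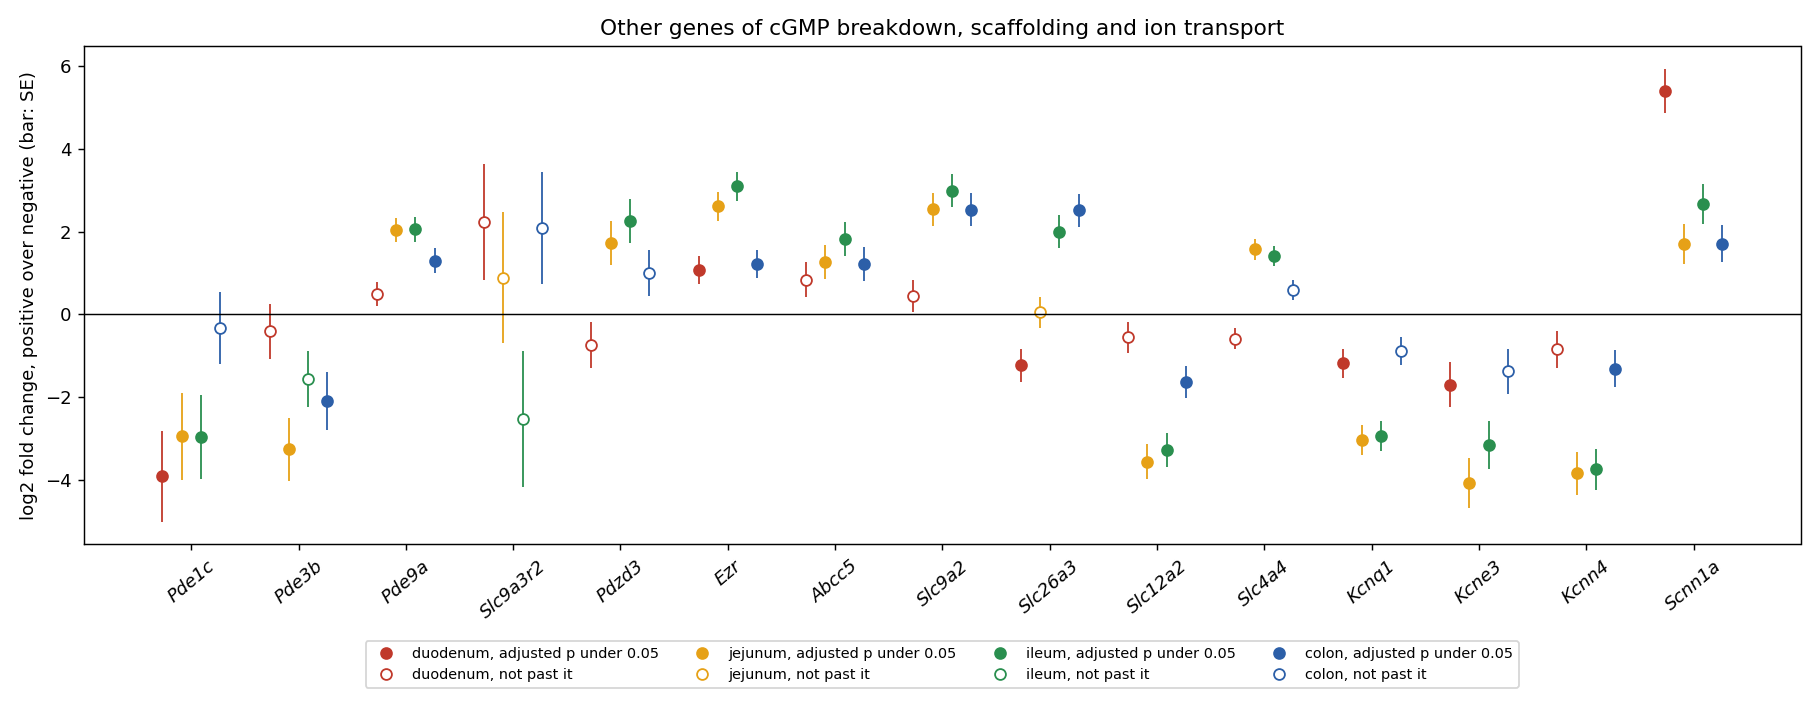
Log2 fold change of Venus-positive over Venus-negative cells (y, with SE) for 15 other pathway genes named in the text (x) in each region, filled where the adjusted p was under 0.05. Slc12a2, Kcnq1, Kcne3 and Kcnn4 lie below 0 in every region, and Scnn1a stands highest in the duodenum at 5.41.

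Among the partners of the scaffolds, ezrin (*Ezr*), which ties them to actin, had an average log2 fold change of 2.0 (adjusted p = 7.3e-11) and was at 1068 ± 332 CPM in ileal positive cells against 125 ± 37. *Pdzd3*, which encodes NHERF4 and binds the receptor, had 1.07 on average (0.0012), with 25.2 ± 5.6 against 7.61 ± 4.10 CPM in the jejunum. In the duodenum its log2 fold change was −0.73 (adjusted p = 0.39) with overlap, and −1.91 (0.033) without positive replicate 3. The duodenum value was −1.91 to −0.32 without each library in turn. The colon value, 1.003 (0.25), also had overlap and was 0.54 to 1.70 without each library in turn. The jejunum call (1.72, adjusted p = 0.0085) was lost without negative replicate 1 (1.39, 0.055). The scaffold *Slc9a3r2* (NHERF2) stayed at group means of 0.0359 to 3.23 CPM, with an average of 0.67 that was not past the threshold (0.52) and ranged from 0.044 to 2.01 without each library in turn. The exporter *Abcc5*, which also carries cyclic nucleotides, had an average of 1.29 (4.1e-06), opposite in sign to the average of *Abcc4*. In the duodenum *Abcc5* and *Abcc4* were both above 0 (0.84 and 1.25), neither past the threshold (adjusted p = 0.17 and 0.30).

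Of 10 other phosphodiesterase genes, 8 were tested, 1 was higher and 4 were lower on average, beside 25.0% and 32.9% of all genes. The list includes *Pde6d*, whose product binds prenylated proteins and does not break cGMP down. The cGMP-specific *Pde9a* was the higher one, at 1.47 (adjusted p = 1.1e-09), with 99.6 ± 27.1 against 24.1 ± 7.2 CPM in the jejunum. In the duodenum *Pde9a* had 20.6 ± 3.0 against 14.7 ± 4.1 CPM, with overlap, and was not past the threshold (0.49, adjusted p = 0.25). Its dependence on region (adjusted p = 0.015) was lost with library size alone (0.12) and without duodenum negative replicate 3 or duodenum positive replicate 2 (0.0721 and 0.0529). *Pde3b*, which cGMP inhibits, had −1.84 (4.7e-05; −2.55 without jejunum positive replicate 3). Its largest change was in the jejunum (−3.27, 0.00090), where 2 of 3 positive libraries were at or under the floor, so the average rests in part on such counts. *Pde3b* was lower in the colon (−2.09, 0.043) and not past the threshold in the duodenum (−0.41, 0.72) or ileum (−1.57, 0.065). *Pde1c*, which calcium activates, was lower on average (8.5e-05) at group means of 0.0771 to 2.48 CPM. All 3 positive libraries of the duodenum and of the jejunum and 2 of the ileum were at or under the floor for *Pde1c*, so no fold is given.

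The genes whose levels followed a pathway gene most closely over the 24 libraries were found by Pearson's r of log2 CPM, given as a description because libraries share regions and sorts. For *Gucy2c* they were *App* (r = 0.936), *Ddr1* (0.931) and *Gak* (0.931). For *Cftr* they were *Pes1* (0.918), *Ddx10* (0.918) and *Mpzl2* (0.896), and for *Slc9a3* they were *Pkm* (0.861), *Tsku* (0.838) and *Nfe2l2* (0.831). Ranked by Spearman's rho, *Ddr1* fell to place 97 for *Gucy2c* and *Mpzl2* to place 87 for *Cftr*. Among the pathway genes themselves, *Gucy2c* had r = 0.85 with *Slc9a3r1* and −0.68 with *Cftr*, and *Cftr* had −0.66 with *Slc9a3* and 0.56 with *Abcc4*.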

How the data were processed

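RNA from 24 sorted libraries was sequenced as single-end reads of 50 bases. Per the labels and methods, libraries were made with a stranded pico kit, STAR 2.5.1 aligned the reads to GRCm38 and counted them per gene, and the authors deposited raw counts of 53465 genes without normalisation. The annotation release and strand setting are not given in the sources used here. Names, positions and exon lengths came from GENCODE M21, which matched 53274 genes.

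Low genes were removed by filterByExpr (10 as minimum count, 15 as minimum total), and the rest were scaled by TMM and fitted with edgeR 4.0.16 in R 4.3.3, with 1 coefficient per group and a common dispersion of 0.185. Ratios used 0.5 added to each count. Their permutation tests take the libraries of a region as exchangeable, and mice shared between libraries were not taken into account. Likeness used log2 CPM with a prior count of 2. Alternatives were RLE factors, library size alone, DESeq2 1.42.0, no filter, at least 10 counts in 12 libraries, the i5 index as covariate, nuclear protein-coding genes only, the 6 libraries of a region alone, and each library left out.

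The pathway genes, the other lists and the tests were chosen with earlier results of these data known. Some listed genes are not reported here and were left out of the list counts. Named were the 10 pathway genes, listed genes past the threshold on average whose sorts did not overlap in at least 3 regions, the partners *Prkg1*, *Slc9a3r2*, *Pdzd3*, *Slc9a2*, *Slc26a3*, *Pde9a* and *Abcc5*, and the 3 genes most like each of *Gucy2c*, *Cftr* and *Slc9a3*. *Slc9a8* and the immune markers Lyz2 and Ptprc fall outside this rule and were chosen after their values were seen.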

Additional observations from a re-analysis of the deposited data

Results flagged for a closer look

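These results stood out because the difference between Venus-positive and Venus-negative cells was not the same in the 4 regions, by edgeR's joint test of the interaction (adjusted p over 15044 genes). Groups of 3 libraries were too small for a test of outlying libraries.

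Among the pathway genes the adjusted p was 5.0e-05 for *Guca2a*, 0.00010 for *Prkg2*, 0.00043 for *Pde5a*, 0.00098 for *Pdzk1*, 0.0021 for *Slc9a3r1* and 0.026 for *Slc9a3*, the last being lost with DESeq2 (0.067), with library size alone (0.081) and without any of 7 libraries (0.0503 to 0.0762). The value of *Guca2a* is no finding, because its promoter drives the reporter of the sort. Its log2 fold change was 5.75 in the duodenum and 2.65 to 2.86 in the other regions. *Prkg2* and *Pde5a* were below 0 in the duodenum, at −0.90 (adjusted p = 0.071) and −0.84 (0.014), and above it in the other regions, although the colon value of *Pde5a* was not past the threshold (0.29, 0.46). The duodenum call of *Pde5a* was lost with library size alone (−0.37, 0.42), with no filter (−0.76, 0.15) and without negative replicate 2 or positive replicate 2. *Slc9a3r1* and *Pdzk1* had their largest log2 fold changes in the ileum, at 3.63 and 4.54, and *Slc9a3* in the colon, at 3.60. These orders were not tested. Without each library in turn, *Slc9a3* ranged from 2.29 to 3.63 in the ileum and from 3.16 to 4.41 in the colon. *Slc9a3r1* ranged from 2.93 to 3.59 in the jejunum and from 3.40 to 3.98 in the ileum, so both pairs overlapped. In the positive cells of the duodenum goblet markers summed to 45077 to 49837 CPM, and the part of these cells in the differences was not tested.

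Among the other ion transporters named above it was 6.1e-05 for *Slc26a3*, 0.00023 for *Slc4a4*, 0.00053 for *Slc12a2* and 0.00057 for *Scnn1a*. It was 0.0012 for *Kcnn4*, 0.0016 for *Kcnq1*, 0.0045 for *Slc9a2* and 0.032 for *Kcne3*. Listed genes outside the naming rule are left out here. Of all tested, 9 of 12 other ion transporters and 3 of 8 other phosphodiesterase genes passed, against 17.5% of all genes. *Slc26a3* fell by 1.23 in the duodenum and rose by 2.51 in the colon on the log2 scale, the first call being lost with library size alone (−0.75, adjusted p = 0.27) and without any of 4 duodenal libraries (adjusted p = 0.0683 to 0.164). Without duodenum positive replicate 3 it was −1.89. *Slc4a4* had −0.59 in the duodenum and 0.59 to 1.57 in the other regions. Among the partners it was 0.0036 for *Ezr*, 0.015 for *Pde9a* and 0.025 for *Pdzd3*. The test of *Kcne3* was lost with DESeq2 (0.082) and without any of 7 libraries (0.0549 to 0.0783), and that of *Pde9a* with library size alone (0.12) and without duodenum negative replicate 3 or duodenum positive replicate 2 (0.0721 and 0.0529). *Pdzd3* had −0.73 in the duodenum (0.39), and its region dependence was lost with library size alone (0.086) and without duodenum negative replicate 3 (0.0540) or duodenum positive replicate 1 (0.0825) or 2 (0.0853).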

How the results depend on the processing

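No paired analysis was made, because the labels do not name the mouse of a library and replicate numbers follow accession order. Each replicate number covers all 8 groups, and whether it follows the mouse is not known. A fit blocked on replicate number was not run, so calls near the threshold were not checked against it. Of 599 values of the 10 genes under other settings, 578 kept their direction and side of the threshold, 13 lost the call and 8 gained it. In the duodenum 0 of 10 genes were lower with library size alone and 1 with no filter, where 2 were lower in the main setting. In the ileum 1 gene was lower with library size alone and with the 6 libraries of the region. DESeq2 found 5 genes whose sort difference differed between duodenum and colon, where edgeR found 3. *Pde3b* in the duodenum turned to 0.047 with library size alone. The cause was not tested.

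Leaving out each library in turn gave these ranges. Genes higher in the duodenum numbered 2 to 4. Genes lower numbered 0 to 3 in the duodenum, 1 to 2 in the jejunum, 0 to 2 in the ileum, 0 to 1 in the colon and 1 to 2 on average. Genes that differed between duodenum and jejunum in negative cells numbered 1 to 3. The count of 1 came without duodenum negative replicate 1 or 2 or jejunum negative replicate 2. In positive cells *Cftr* lost its dependence on region without ileum positive replicate 1 or jejunum positive replicate 1 or 2 (adjusted p = 0.0508 to 0.109). In negative cells *Prkg2*, *Slc9a3r1* and *Abcc4* lost theirs without at least 1 library. That of *Prkg2* was also lost with RLE factors (adjusted p = 0.0518) and with at least 10 counts in 12 libraries (0.0510). Log2 fold changes that turned ranged from −0.18 to 0.69 for *Slc9a3*, −0.061 to 2.48 for *Abcc4* and −0.30 to 0.76 for *Slc9a2* in the duodenum, from −0.21 to 0.40 for *Slc26a3* and −0.30 to 4.51 for *Slc9a3r2* in the jejunum, and from −0.0016 to 1.15 for *Pdzk1* in the colon. None of these 6 was past the threshold in the main setting. Lengths from the longest transcript raised levels per kilobase by up to 1.31 times. Depth limits *Abcc4*, *Pdzk1* in the colon, *Slc9a3* in the ileum, *Pde1c*, *Pde3b*, *Kcnn4*, *Pdzd3* and *Slc9a3r2*, which had under 20 counts in some libraries. The same holds for *Scnn1a* in negative cells of the duodenum.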
